A study of Arabidopsis thaliana with 9 samples.

Results

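The 10 genes described here encode enzymes that make, conjugate or methylate indole-3-acetic acid (IAA), the main auxin of plants: TAA1, TAR2, YUC3, YUC8, YUC9, IAMT1, GH3.3, GH3.5, GH3.6 and GH3.17. They were taken by name from a table of 33560 gene identifiers, and no threshold on their levels was used. Earlier results of these data were known when they were chosen, so their counts beside all tested genes are a description and not a test. RNA sequencing measured transcripts in the root tip of Arabidopsis thaliana seedlings aged 5 days, in 3 libraries each of the wild type Col-0, the mutant wox5-1 and the mutant seu-3. WOX5 encodes a homeobox transcription factor of the quiescent centre, the slowly dividing cells that the root stem cells surround, and SEU (SEUSS) encodes a transcriptional co-regulator. All seedlings had 2 days of cold and then grew upright on medium with 1% sucrose, under 16 h of light and 8 h of darkness a day, and no other allele or agent is named for any group. The sampled root tip was about 1 mm long by the series description and about 3 mm by the extraction protocol. The labels do not say whether the libraries of a genotype came from separate sowings, so a p-value here reflects only the spread among these libraries, which may be technical. Tests covered the 17062 genes whose mean FPKM reached 1 or more across the 9 libraries. Of the 10 enzymes 9 were among them, and GH3.3 lay below that level. FPKM are fragment numbers divided by transcript length and by library size, so levels of different genes can be compared per length.

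Roots make IAA from tryptophan in a short route. TAA1 and its relative TAR2 are aminotransferases that turn tryptophan into indole-3-pyruvate, and the YUC enzymes are flavin monooxygenases that turn indole-3-pyruvate into IAA. GH3 enzymes join IAA to amino acids, which takes free auxin out of use, and several GH3 genes are themselves induced by auxin. IAMT1 transfers a methyl group to the carboxyl group of IAA, which gives an inactive ester that esterases can turn back into IAA.

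The transcript of SEU was lowest in the libraries labelled seu-3, and that of WOX5 was at or near 0 in both mutants. Levels of SEU averaged 4.71 ± 0.513 FPKM for seu-3, 15.1 ± 3.14 for Col-0 and 13.2 ± 0.156 for wox5-1 (SD, n = 3 for all values of this form), although SEU overlaps another annotated gene. WOX5 was listed at 0 in all 3 wox5-1 libraries, between 0.301 and 0.524 FPKM in Col-0, and at 0.0884, 0 and 0 FPKM in seu-3. WOX5 lay below the level for testing, and its values alone do not tell wox5-1 from seu-3. Each library summed to an FPKM of 794809 to 839181. Its depth, read from the finest increments of low FPKM, was roughly 6.94 to 11.2 M fragments. Of 6 pollen genes, 5 were at 0 in every Col-0 library, while all 6 were above 0 in every wox5-1 library, with sums of 10.9, 4.78 and 77.9 FPKM in wox5-1 replicates 1, 2 and 3. The same wox5-1 replicate 3 held 61.3 FPKM over 6 genes of green tissue, against 6.29 to 13.0 in the other libraries. For the enzymes and the other auxin genes, what changes without that library is stated below. Differences are given as differences of mean log2(FPKM + 1), which understate changes at low FPKM, and a gene is said to have risen or fallen at an adjusted p below 0.05 (limma, Benjamini-Hochberg over all tested genes). Against Col-0, the median difference over the tested genes was 0.05 for wox5-1 and -0.24 for seu-3. Median-ratio scaling brought the seu-3 median to 0.01 and changed the split of called genes from 1136 higher and 5830 lower to 3186 higher and 2934 lower, so the values of the enzymes and of the other auxin genes called in seu-3 are also read on that scale below.

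In seu-3, 3 of the 9 tested enzymes rose (IAMT1, YUC3 and GH3.6), 3 fell (GH3.5, YUC8 and TAR2) and 3 did not pass (TAA1, YUC9 and GH3.17), each against Col-0. Of all tested genes 40.8% were called in that comparison, 6.66% as higher and 34.2% as lower. In wox5-1 only GH3.6 passed among the 9, and it fell, where 27.3% of all tested genes were called, 13.7% as higher and 13.5% as lower. Against wox5-1, seu-3 had 3 enzymes higher (IAMT1, YUC3 and GH3.6), 2 lower (GH3.5 and YUC8) and 4 that did not pass, where 64.5% of all tested genes were called, 19.9% as higher and 44.6% as lower. By the moderated F test over the 3 genotypes 5 of the 9 differed (IAMT1, GH3.5, GH3.6, YUC3 and YUC8), beside 65.6% of all tested genes. The median difference of the 9 enzymes was -0.29 in wox5-1 and -0.31 in seu-3 against Col-0, and -0.02 in seu-3 against wox5-1, where all tested genes had a median of -0.27. Both comparisons with Col-0 use the same 3 Col-0 libraries.

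The libraries of seu-3 and Col-0 did not overlap for 7 of the 9 enzymes, 3 of them higher in seu-3 and 4 lower, beside 56.3% of all tested genes (11.5% higher and 44.8% lower). For wox5-1 and Col-0 that held for 3 of the 9, with YUC8 higher and GH3.5 and GH3.6 lower in wox5-1, beside 50.2% of all tested genes (30.2% higher and 19.9% lower). For seu-3 and wox5-1 it held for 6 of the 9, 3 higher and 3 lower in seu-3, beside 71.0% of all tested genes (22.3% higher and 48.6% lower). With both directions together, the shares of enzymes in both comparisons with wox5-1 were thus no higher than those of all tested genes. By direction this did not hold for enzymes lower in wox5-1 than in Col-0, or for those higher in seu-3 than in wox5-1.

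**Figure D1:**
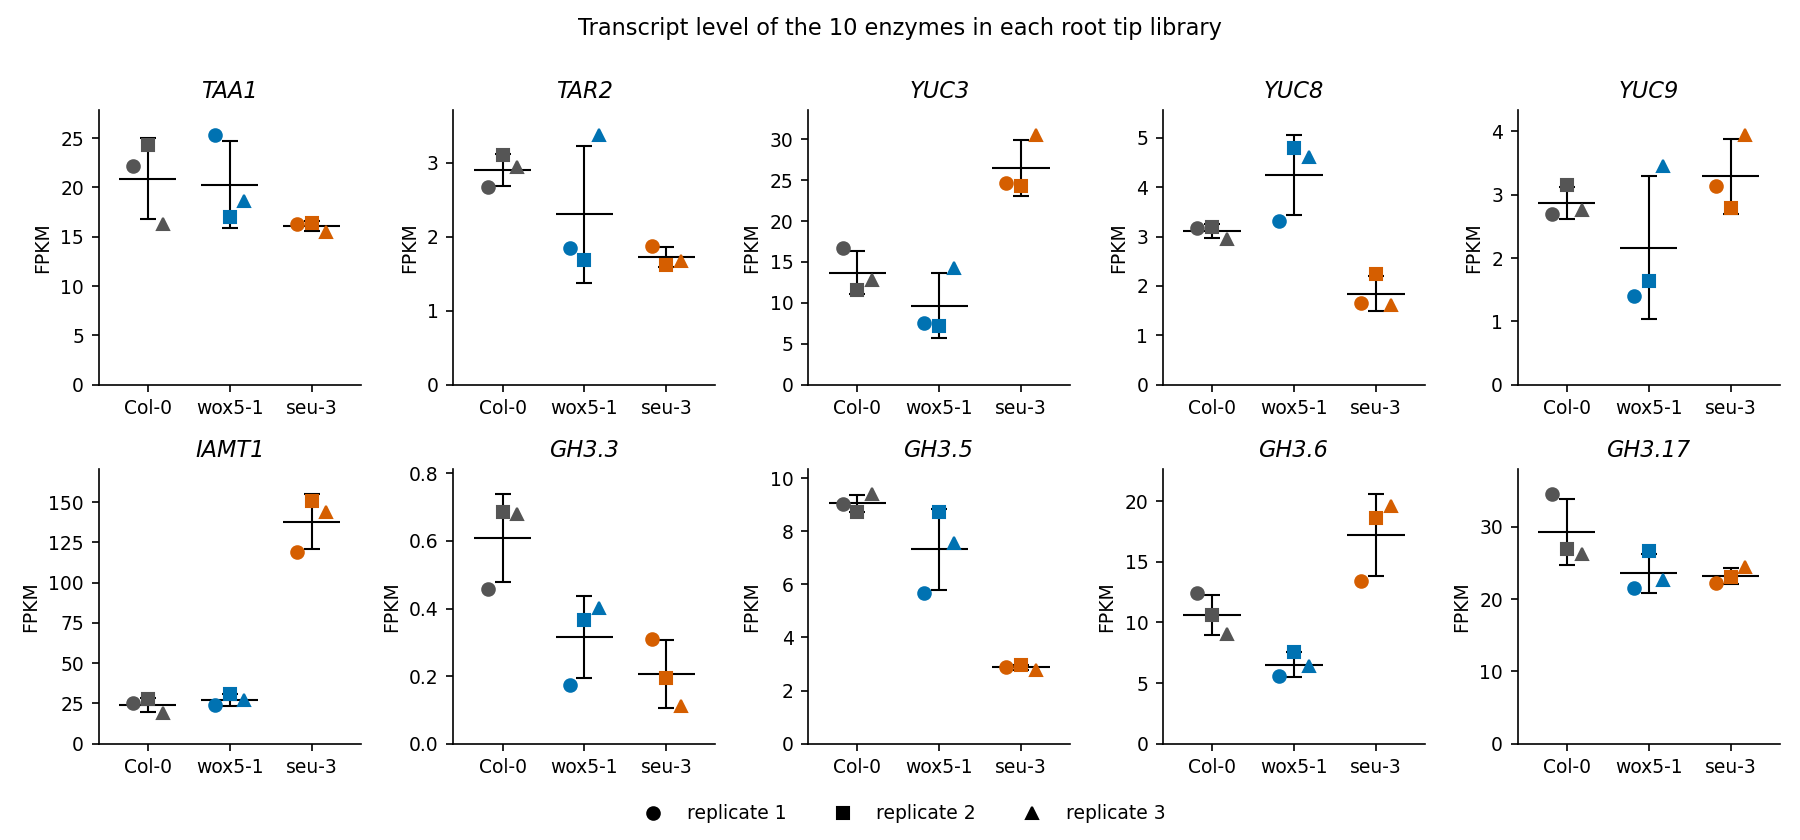
FPKM (y axis, from 0) of each of the 10 enzymes in the 9 root tip libraries, by genotype (x axis). Symbols are libraries, with a different symbol for each replicate number, horizontal bars are means and error bars are SD over the 3 libraries of a genotype. IAMT1 stands at 119 to 151 FPKM in the 3 seu-3 libraries and at 19.0 to 30.8 in the other 6.

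In Col-0 the highest level per length was that of GH3.17, at 29.3 ± 4.55 FPKM, followed by IAMT1 (23.8 ± 4.33), TAA1 (20.9 ± 4.15), YUC3 (13.7 ± 2.66), GH3.6 (10.6 ± 1.68) and GH3.5 (9.05 ± 0.328). Libraries of each neighbour in this order overlapped. GH3.5 was above YUC8 (3.11 ± 0.142), TAR2 (2.90 ± 0.220) and YUC9 (2.87 ± 0.251) with no overlap, the libraries of these 3 overlapped among themselves, and GH3.3 was lowest at 0.608 ± 0.130. In seu-3 the order opened with IAMT1, at 138 ± 16.9 FPKM, then YUC3 (26.5 ± 3.46), GH3.17 (23.2 ± 1.16), GH3.6 (17.2 ± 3.35) and TAA1 (16.1 ± 0.482). There IAMT1 stood clear of YUC3 and GH3.17 of GH3.6, while the libraries of YUC3 and GH3.17, and of GH3.6 and TAA1, overlapped. In wox5-1 the order opened with IAMT1 (27.2 ± 3.49), GH3.17 (23.6 ± 2.69) and TAA1 (20.3 ± 4.40), whose libraries overlapped.

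TAA1 (AT1G70560, chr1:26604855-26607652, plus strand, here and below in the RefSeq annotation of TAIR10.1) catalyses the first step of the route. It was 22.2, 24.3 and 16.3 FPKM in the Col-0 libraries, 25.3, 17.0 and 18.6 in wox5-1, and 16.3, 16.4 and 15.5 in seu-3. The libraries of wox5-1 and Col-0 overlap, and the seu-3 libraries lie at or next to the lowest Col-0 library. TAA1 did not pass in wox5-1 (difference -0.04, 95% confidence interval -0.43 to 0.34, adjusted p = 0.869) or in seu-3 (-0.34, interval -0.73 to 0.04, adjusted p = 0.133). Without Col-0 replicate 3 the seu-3 value was -0.51 with an adjusted p of 0.0462, with sample quality weights it was -0.45 with an adjusted p of 0.00454, and with median-ratio scaling it was -0.07.

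TAR2 (AT4G24670, chr4:12727531-12731331, minus strand) encodes the second aminotransferase of this step and was much lower than TAA1 per length. It was 2.67, 3.1 and 2.94 FPKM in Col-0, 1.85, 1.68 and 3.37 in wox5-1, and 1.87, 1.61 and 1.67 in seu-3. All seu-3 libraries were below all Col-0 libraries, and in wox5-1 replicates 1 and 2 were below Col-0 and replicate 3 above it. TAR2 fell 1.69-fold in seu-3 (difference -0.52, SE 0.19, adjusted p = 0.0475). That call sat close to the threshold: with median-ratio scaling the difference was -0.32 (adjusted p = 0.192), and the adjusted p was 0.067 with the replicate number as a block. It was 0.0702, 0.122 and 0.109 without Col-0 replicates 1, 2 and 3, 0.0826, 0.0969 and 0.109 without seu-3 replicates 1, 2 and 3, and 0.0517 without wox5-1 replicate 1. TAA1 and TAR2 together summed to 23.8 ± 4.18 FPKM for Col-0, 22.6 ± 4.26 for wox5-1 and 17.8 ± 0.519 for seu-3.

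The YUC genes act next, and YUC3 (AT1G04610, chr1:1279351-1281618, plus strand) was the highest of the 3 per length in every library. It was 16.7, 11.6 and 12.8 FPKM in Col-0, 7.58, 7.15 and 14.2 in wox5-1, and 24.7, 24.3 and 30.5 in seu-3. Every seu-3 library was above every library of the other genotypes. YUC3 rose 1.93-fold in seu-3 against Col-0 (difference 0.91, SE 0.23, adjusted p = 0.0139) and was 2.75-fold higher than in wox5-1 (difference 1.42, adjusted p = 0.000591). With median-ratio scaling the first of these was 1.19 (adjusted p = 0.00786), and without Col-0 replicate 2 it was 0.81 (adjusted p = 0.0511).

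YUC8 (AT4G28720, chr4:14192569-14194302, plus strand) differed in the opposite direction. It was 3.18, 3.2 and 2.94 FPKM in Col-0, 3.31, 4.80 and 4.62 in wox5-1, and 1.66, 2.25 and 1.62 in seu-3, so that the libraries of the 3 genotypes did not overlap. YUC8 fell 1.69-fold in seu-3 against Col-0 (difference -0.54, SE 0.15, adjusted p = 0.0204) and was 2.30-fold lower than in wox5-1 (difference -0.88, adjusted p = 0.000809). The fall against Col-0 did not pass with median-ratio scaling (-0.34, adjusted p = 0.0933), or without Col-0 replicate 1 (0.0501) or 2 (0.0598) or seu-3 replicate 1 (0.0667) or 3 (0.0664). Between seu-3 and wox5-1 it passed with median-ratio scaling (-0.64, adjusted p = 0.00334) and with quantile normalization (-0.44, adjusted p = 0.0232) too. In wox5-1 against Col-0 the difference was 0.34 (interval -0.00 to 0.68, adjusted p = 0.114), and with sample quality weights it passed (0.38, adjusted p = 0.0305).

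YUC9 (AT1G04180, chr1:1104493-1106241, plus strand) was 2.69, 3.15 and 2.76 FPKM in Col-0, 1.40, 1.63 and 3.46 in wox5-1, and 3.13, 2.79 and 3.94 in seu-3. The libraries of the genotypes overlapped in each comparison. Its differences from Col-0 were -0.34 in wox5-1 (interval -0.85 to 0.16, adjusted p = 0.256) and 0.14 in seu-3 (interval -0.36 to 0.64, adjusted p = 0.632). Between seu-3 and wox5-1 it was 0.49 (adjusted p = 0.082), and passed with median-ratio scaling (0.72, adjusted p = 0.0188) or without wox5-1 replicate 3 (0.76, adjusted p = 0.00373).

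The 3 YUC genes together summed to 19.7 ± 2.52 FPKM for Col-0, 16.0 ± 5.43 for wox5-1 and 31.6 ± 3.82 for seu-3. The wox5-1 sums were 12.3, 13.6 and 22.3 FPKM in replicates 1, 2 and 3. YUC3 made up 69.3% ± 4.69 of that sum for Col-0, 59.3% ± 5.89 for wox5-1 and 83.7% ± 0.870 for seu-3, while YUC8 made up 15.9% ± 1.85, 27.7% ± 7.34 and 5.93% ± 1.60. The ratio of YUC3 to YUC8 within a library, which no scaling of the library changes, was 5.24, 3.63 and 4.36 in Col-0, 2.29, 1.49 and 3.07 in wox5-1, and 14.9, 10.8 and 18.8 in seu-3. The ratios of the 3 genotypes did not overlap.

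In wox5-1, the level of TAR2, YUC3 and YUC9 in replicate 3 was 3.37, 14.2 and 3.46 FPKM, above replicates 1 and 2, in which each of these genes was below every Col-0 library. With replicate 3 none of them passed against Col-0. TAR2 was -0.27 (adjusted p = 0.27), YUC3 -0.51 (interval -1.04 to 0.01, adjusted p = 0.119) and YUC9 -0.34. Without that library the differences were -0.49 for TAR2 (adjusted p = 0.0439), -0.80 for YUC3 (adjusted p = 0.018) and -0.62 for YUC9 (adjusted p = 0.034), and each passed. Between seu-3 and wox5-1 the YUC3 difference was 1.71 without it (adjusted p = 0.000316). This is the library with 77.9 FPKM over the pollen genes and 61.3 over the green tissue genes, and the part of these in the levels of TAR2, YUC3 and YUC9 was not tested.

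IAMT1 (AT5G55250, chr5:22407427-22410974, minus strand), the IAA methyltransferase, differed most among the 10 genes. It was 25.0, 27.5 and 19.0 FPKM in Col-0, 23.8, 30.8 and 26.9 in wox5-1, and 119, 151 and 144 in seu-3. The Col-0 and wox5-1 libraries overlapped, and each seu-3 library was above all of them. IAMT1 rose 5.80-fold in seu-3 against Col-0 (difference 2.49, SE 0.16, interval 2.15 to 2.84, adjusted p = 9.55e-05), which was rank 5 from the highest among 17062 genes. It was 5.08-fold higher than in wox5-1 (difference 2.30, adjusted p = 3.04e-05), and in wox5-1 against Col-0 it did not pass (0.19, interval -0.16 to 0.54, adjusted p = 0.358). With median-ratio scaling the seu-3 value was 2.78, with sample quality weights 2.21, and the rise passed under every alternative tried.

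The window of 250 bases before the annotated start of IAMT1 (chr5:22410975-22411224, minus strand, RefSeq TAIR10.1) is shown because this gene had the largest change of the 10. It holds none of the motifs searched, which were the auxin response elements TGTCTC and TGTCGG and the G-box CACGTG, each on both strands.
IAMT1: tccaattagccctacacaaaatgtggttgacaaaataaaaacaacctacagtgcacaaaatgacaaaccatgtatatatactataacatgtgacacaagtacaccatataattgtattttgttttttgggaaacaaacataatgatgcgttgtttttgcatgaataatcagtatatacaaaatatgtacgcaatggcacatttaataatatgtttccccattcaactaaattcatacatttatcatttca

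The 4 GH3 enzymes form conjugates of IAA with amino acids; GH3.17 favours glutamate, and GH3.5 and GH3.6 can use aspartate. GH3.5 and GH3.6 are close relatives whose windows before the start also resemble each other. The windows of GH3.5 (chr4:13653329-13653578, plus strand) and GH3.6 (chr5:22133689-22133938, minus strand) share 5 runs of at least 10 bases, the longest of 14, and 164 aligned bases are identical. The other pairs among the 4 GH3 windows have 118 to 133 identical aligned bases and at most 1 such run. The windows are shown because the transcripts of this pair moved in opposite directions in seu-3, and capitals mark the shared runs, of which a pair adjoins, so that they show as 4 stretches.
GH3.5: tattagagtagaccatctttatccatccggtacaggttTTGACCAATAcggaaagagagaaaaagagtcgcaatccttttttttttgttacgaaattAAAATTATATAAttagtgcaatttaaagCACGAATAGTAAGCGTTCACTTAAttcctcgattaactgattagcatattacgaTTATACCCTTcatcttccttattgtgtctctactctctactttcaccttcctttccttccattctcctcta
GH3.6: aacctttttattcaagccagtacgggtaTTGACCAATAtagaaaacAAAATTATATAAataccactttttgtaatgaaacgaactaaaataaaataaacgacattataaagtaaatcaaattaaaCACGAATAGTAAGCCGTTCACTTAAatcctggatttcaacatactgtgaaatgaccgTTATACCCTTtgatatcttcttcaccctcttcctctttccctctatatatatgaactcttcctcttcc

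The motif TGTCTC was found in 2 of the 10 windows, those of GH3.5 and GH3.3, and in 10.9% of 27443 windows of the same length over annotated protein-coding genes. In GH3.5 it begins 47 bases before the start and in GH3.3 116 bases before it. TGTCGG and CACGTG were in none of the 10, and in 4.16% and 6.49% of all windows. A match of letters describes the window and does not show a bound site. The window of GH3.3 (chr2:9866563-9866812, minus strand) is shown with TGTCTC in capitals, as the only other member that holds it.
GH3.3: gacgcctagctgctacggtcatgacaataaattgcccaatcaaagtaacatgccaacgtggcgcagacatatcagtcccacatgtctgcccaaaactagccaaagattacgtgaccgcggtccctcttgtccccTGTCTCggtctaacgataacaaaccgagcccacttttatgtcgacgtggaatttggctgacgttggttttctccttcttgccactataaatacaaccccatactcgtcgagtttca

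GH3.5 (AT4G27260, chr4:13653579-13656285, plus strand) was 9.01, 8.74 and 9.39 FPKM in Col-0, 5.69, 8.72 and 7.54 in wox5-1, and 2.88, 2.95 and 2.77 in seu-3. The seu-3 libraries were below all others, and the highest wox5-1 library was just below the lowest of Col-0. GH3.5 fell 3.16-fold in seu-3 against Col-0 (difference -1.38, SE 0.14, interval -1.69 to -1.06, adjusted p = 0.000797) and was 2.55-fold lower than in wox5-1 (difference -1.09, adjusted p = 0.000185; -0.66 with quantile normalization, adjusted p = 0.0027). The fall against Col-0 passed under every alternative tried, with -1.14 under median-ratio scaling (adjusted p = 0.00118). In wox5-1 against Col-0 the difference was -0.29 (interval -0.60 to 0.02, adjusted p = 0.137).

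GH3.6 (AT5G54510, chr5:22130964-22133688, minus strand) was the only one of the 10 to pass in both mutants, in opposite directions. It was 12.4, 10.6 and 9.01 FPKM in Col-0, 5.56, 7.58 and 6.39 in wox5-1, and 13.4, 18.6 and 19.6 in seu-3, and the libraries of the 3 genotypes did not overlap. GH3.6 fell 1.64-fold in wox5-1 (difference -0.63, SE 0.17, adjusted p = 0.0282) and rose 1.61-fold in seu-3 (difference 0.63, SE 0.17, adjusted p = 0.0171). Between the mutants themselves seu-3 was 2.64-fold higher (difference 1.27, SE 0.17, adjusted p = 0.000229). The fall in wox5-1 did not pass without Col-0 replicate 1 (-0.53, adjusted p = 0.0815) or 2 (0.0826), or without wox5-1 replicate 1 (-0.54, 0.104) or 3 (0.0592). The rise in seu-3 did not pass without Col-0 replicate 3 (0.53, adjusted p = 0.063) or seu-3 replicate 3 (0.54, 0.0615), and with median-ratio scaling it was 0.91 (adjusted p = 0.0066) and with sample quality weights 0.37 (adjusted p = 0.018).

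GH3.17 (AT1G28130, chr1:9825169-9828118, plus strand) was 34.5, 27.0 and 26.2 FPKM in Col-0, 21.5, 26.6 and 22.7 in wox5-1, and 22.2, 23.0 and 24.5 in seu-3. The seu-3 libraries were below those of Col-0, while wox5-1 overlapped with Col-0. Its difference from Col-0 was -0.29 in wox5-1 (adjusted p = 0.102) and -0.31 in seu-3 (interval -0.59 to -0.03, adjusted p = 0.0749), and with median-ratio scaling the seu-3 value was -0.03. Sample quality weights gave -0.30 with an adjusted p of 0.00702.

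GH3.3 (AT2G23170, chr2:9863855-9866562, minus strand) was near the limit of detection. The Col-0 libraries held 0.458, 0.687 and 0.680 FPKM, the wox5-1 libraries 0.175, 0.366 and 0.403, and the seu-3 libraries 0.311, 0.195 and 0.111, which stand for roughly 2.30 to 11.6 fragments a library. Both mutants were below Col-0 in every library, with differences of -0.29 in wox5-1 and -0.42 in seu-3. The exact two-sided permutation p was 0.1 for each, the smallest that 3 libraries against 3 can give. In a limma fit without the filter on low values the adjusted p was 0.0175 for seu-3 and 0.0747 for wox5-1. Of its 2069 transcript windows of 50 bases 7 also occur in AT4G37390 (GH3.2), and none of the other 9 enzymes shares a window of that length with another gene.

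**Figure D2:**
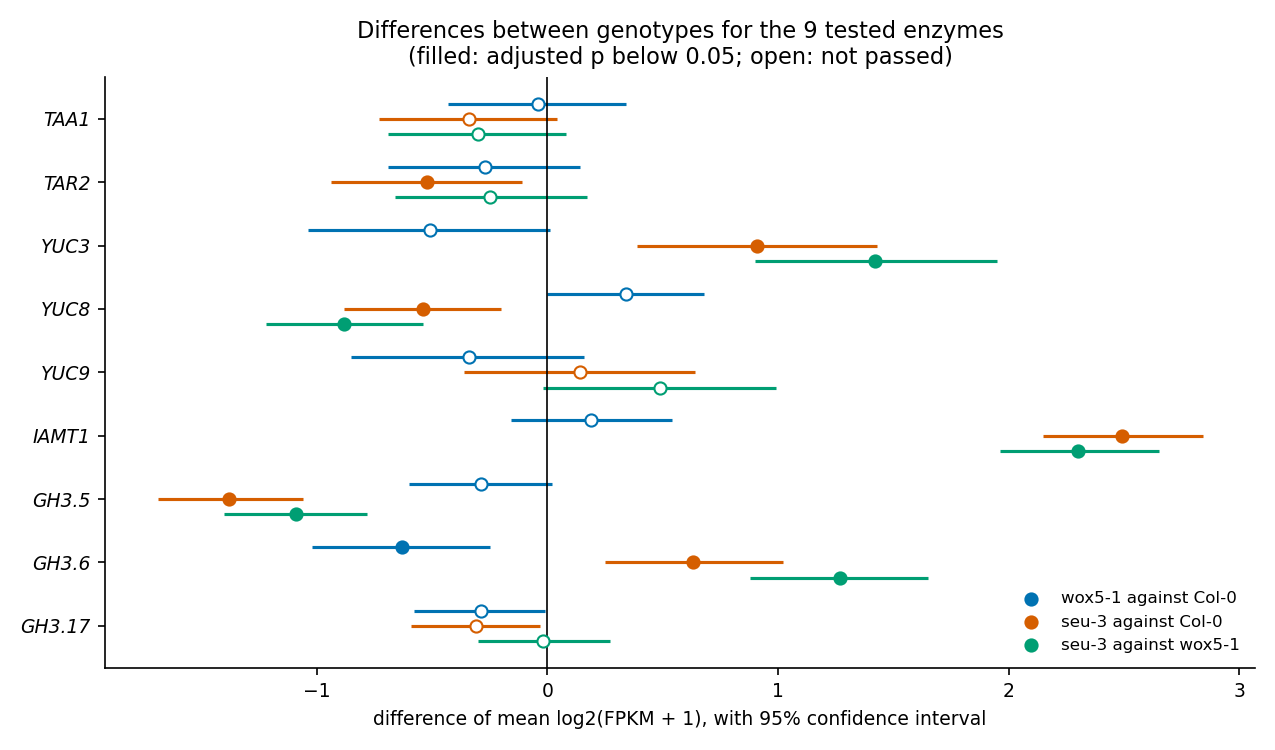
Difference of mean log2(FPKM + 1) (x axis) for each of the 9 tested enzymes (y axis) in the 3 comparisons between genotypes. Points are limma estimates, bars are 95% confidence intervals, and filled points have an adjusted p below 0.05. IAMT1 in seu-3 lies at 2.49 against Col-0 and GH3.5 at -1.38, and GH3.6 is the only filled point of wox5-1 against Col-0.

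The ratio of GH3.6 to GH3.5 within a library was 1.37, 1.21 and 0.959 in Col-0, 0.978, 0.870 and 0.847 in wox5-1, and 4.64, 6.31 and 7.07 in seu-3. The seu-3 ratios stood apart, and 1 wox5-1 ratio lay above the lowest of Col-0. The summed FPKM of the 4 GH3 genes was 49.6 ± 5.92 for Col-0, 37.7 ± 5.23 for wox5-1 and 43.5 ± 4.23 for seu-3. GH3.5 made up 18.4% ± 2.37, 19.3% ± 1.71 and 6.64% ± 0.762 of that sum in Col-0, wox5-1 and seu-3, and GH3.6 made up 21.4% ± 1.37, 17.2% ± 0.306 and 39.2% ± 4.16. GH3.17 held at least 51.3% of it in every library.

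**Figure D3:**
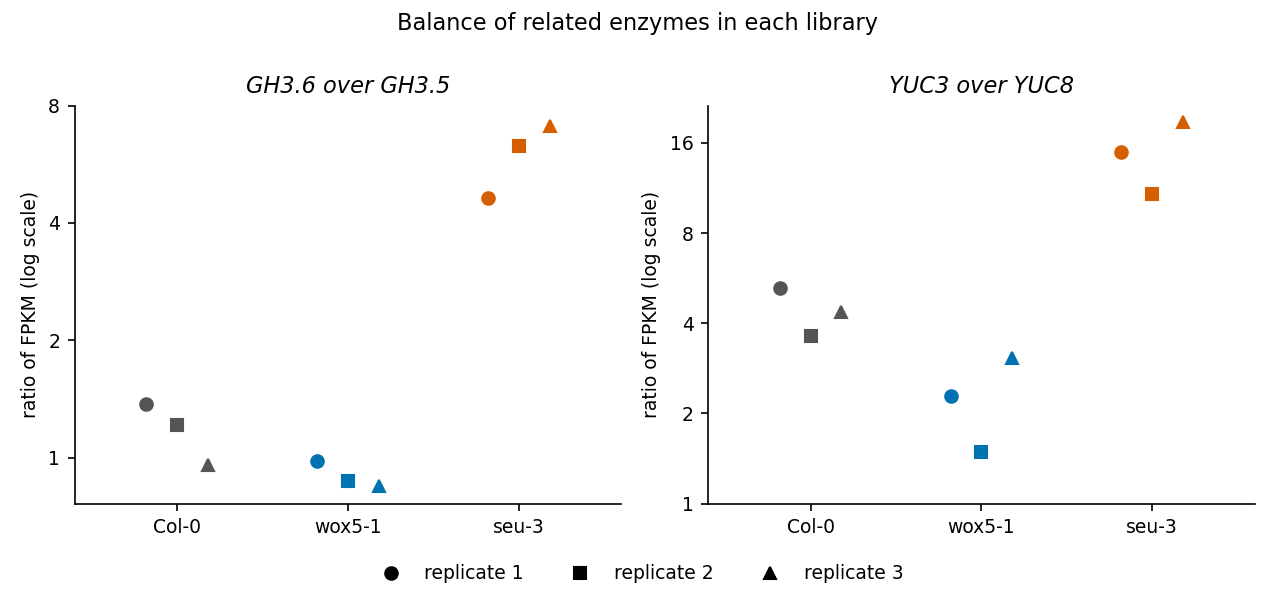
Ratio of GH3.6 to GH3.5 and of YUC3 to YUC8 in FPKM (y axes, log scale) in each of the 9 libraries by genotype (x axes). Symbols are single libraries. In seu-3 both ratios lie above those of all other libraries, at 4.64 to 7.07 and 10.8 to 18.8.

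**Figure D4:**
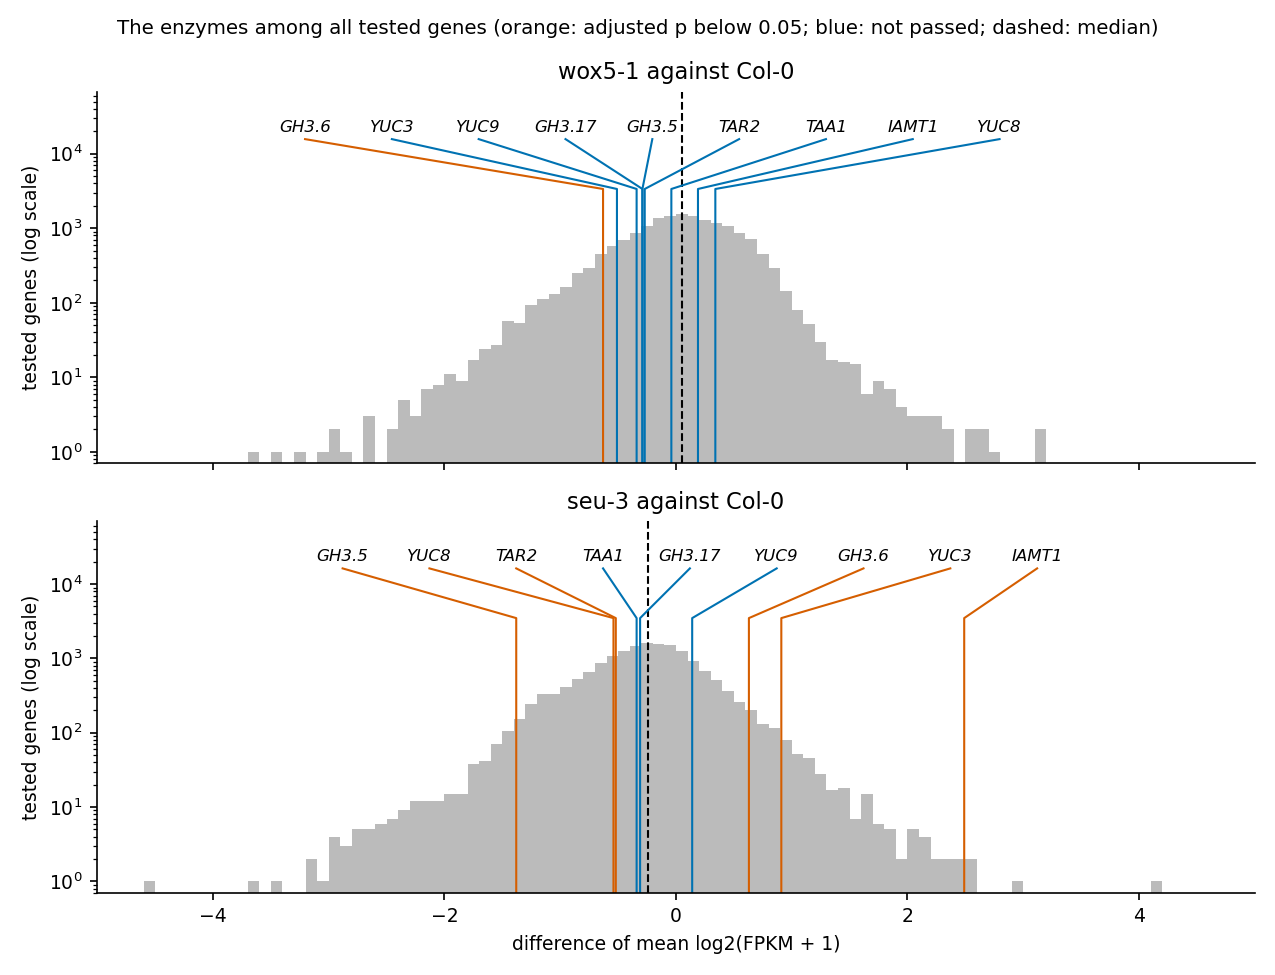
Histograms of the difference of mean log2(FPKM + 1) (x axes) over 17062 tested genes (y axes, number of genes, log scale) for each mutant against Col-0. Coloured lines mark the 9 tested enzymes, orange where the adjusted p was below 0.05, and the dashed line is the median of all tested genes, 0.05 in wox5-1 and -0.24 in seu-3.

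Root tips are mixtures of cell types, and in bulk samples fewer cells of a type and less RNA per cell cannot be told apart. Marker levels differed between the genotypes along with the enzymes. The summed FPKM of 4 root meristem genes was 28.5 to 34.4 in Col-0, 37.7 to 44.0 in wox5-1 and 14.1 to 26.1 in seu-3, and that of 6 root cap genes was 144 to 177, 72.2 to 92.1 and 153 to 164. Over 5 root hair genes it was 2686 to 2804, 1798 to 2641 and 3178 to 3908, and over 8 genes of the Casparian strip endodermis 2102 to 3453, 1760 to 2788 and 1645 to 2358. Over the 2 quiescent centre genes it was 1.40 to 1.95, 0 to 0.487 and 0.663 to 2.90. That sum joins WOX5, the gene of the wox5-1 mutant itself, with AGL42, and the 2 differed in direction between Col-0 and seu-3. Means in Col-0, wox5-1 and seu-3 were 0.429, 0 and 0.0295 FPKM for WOX5. For AGL42 they were 1.3, 0.323 and 1.62. None of the genes on these lists was at 0 in all libraries of a genotype, other than WOX5 in wox5-1. The root cap sum joins genes that differed in direction between Col-0 and seu-3. Mean FPKM were higher in seu-3 for BRN1 (39.9 to 52.2) and BFN1 (8.58 to 17.5). They were lower for SMB (10.3 to 4.59), FEZ (0.771 to 0.0648), BRN2 (37.5 to 34) and CEL5 (61 to 50). The root hair sum was lowest in wox5-1 and highest in seu-3 with no overlap between the genotypes, an order that GH3.6 also had. The meristem sum had the reverse order, as did YUC8. The root cap, Casparian strip and quiescent centre sums overlapped between Col-0 and seu-3 and had neither order. How many of all tested genes have either order was not counted, so the shared order is only a description. PRP3 was the largest part of the root hair sum, with means of 1878, 1634 and 2419 FPKM in Col-0, wox5-1 and seu-3. The means of COBL9, EXPA7 and EXPA18 had the same order, and those of RSL4 did not (67.9, 50.8 and 62.5). SCR was the largest part of the meristem sum (25.1, 29.7 and 17.1), and the means of PLT1, PLT2 and CYCB1;1 had its order. The part of cell composition in the changes of IAMT1, YUC3, YUC8, GH3.5 and GH3.6 was not tested.

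Of 45 further genes of auxin metabolism 29 were tested. In wox5-1 against Col-0 4 rose, 5 fell and 20 did not pass, and in seu-3 against Col-0 2 rose, 6 fell and 21 did not pass. The called shares of all tested genes were the 27.3% and 40.8% given above. Of 12 other genes of the indole-3-pyruvate route 10 lay below the filter, among them the other YUC genes, and YUC1, YUC11 and TAR1 were listed at 0 in all libraries. The tested AT1G34040, annotated only as a pyridoxal phosphate-dependent transferase, fell in wox5-1, from 20.5 ± 0.337 to 9.47 ± 1.73 FPKM (difference -1.05, adjusted p = 0.00137), and was 25.9 ± 1.49 in seu-3.

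The other GH3 genes had 3 of 5 tested, of which 2 fell in wox5-1, 1 fell in seu-3 and none rose. GH3.2, listed in the annotation as BRU6, was at 8.49 ± 1.83 FPKM in the Col-0 libraries, at 3.77 ± 0.722 in wox5-1 and at 0.379 ± 0.0935 in seu-3. It fell 2.25-fold in wox5-1 (difference -0.99, adjusted p = 0.00635) and 22.4-fold in seu-3 (difference -2.77, adjusted p = 9.55e-05). The size of the second fold is uncertain, since the seu-3 level was below 1 FPKM. Over 17 alternatives that difference ran from -4.16 to -2.52. GH3.1 fell in wox5-1, from 8.60 ± 2.84 to 4.35 ± 0.341 FPKM (difference -0.80, adjusted p = 0.0316), and was 5.09 ± 1.11 in seu-3.

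Of 7 tryptophan synthesis genes 2 rose in wox5-1, both for the beta subunit of tryptophan synthase, TSB2 (difference 0.71, adjusted p = 0.0311) and TSB1 (0.39, adjusted p = 0.0385). In seu-3 none rose and ASA1, for a subunit of anthranilate synthase, fell (-0.41, adjusted p = 0.0425). ASA1 overlaps 2 other annotated genes. Of 7 tested genes of the indole glucosinolate branch and the nitrilases 2 rose and 2 fell in seu-3. CYP83B1, which draws indole-3-acetaldoxime into glucosinolates, rose from 28.5 ± 5.13 to 55.3 ± 13.8 FPKM (difference 0.91, adjusted p = 0.0068). CYP79B3, which makes that oxime from tryptophan, fell from 2.84 ± 0.927 to 1.30 ± 0.919 FPKM with overlapping libraries (-0.78, adjusted p = 0.0475). That call was lost in 14 of 17 alternatives. Its relative CYP79B2 did not pass in seu-3, at 3.01 ± 0.369 FPKM in Col-0 and 4.23 ± 2.43 in seu-3. The nitrilase NIT1 rose from 196 ± 15.7 to 332 ± 32.1 FPKM (0.75, adjusted p = 0.00191) and NIT2 fell (-0.48, adjusted p = 0.0178). NIT3 rose in wox5-1 (0.35, adjusted p = 0.0245). NIT1, NIT2 and NIT3 are close copies of each other, as are TSB1 and TSB2, and how the authors' counting split shared reads is not given in the sources used here.

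Of 10 tested genes of auxin oxidation, glucosylation and hydrolysis of conjugates or esters 1 rose and 2 fell in wox5-1, and 2 fell in seu-3. UGT74E2, a glucosyltransferase that acts on the related auxin indole-3-butyric acid, was 27.8 ± 3.34 FPKM in Col-0, rose to 51.6 ± 11.7 in wox5-1 (difference 0.85, adjusted p = 0.018) and fell to 13.3 ± 3.59 in seu-3 (-1.04, adjusted p = 0.00545). ILR1, a hydrolase that frees IAA from amino acid conjugates, fell in seu-3 (-0.34, adjusted p = 0.0175). Its relative ILL2, which overlaps 2 other annotated genes, fell in wox5-1 (-0.33, adjusted p = 0.0236). AT1G14120, annotated as a 2-oxoglutarate and iron dependent oxygenase, fell in wox5-1 from 2.31 ± 0.761 to 0.463 ± 0.182 FPKM (-1.16, adjusted p = 0.0243).

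Auxin response factors bind TGTC-containing elements, and GH3 genes are known targets. Of 6 on the list 2 rose in wox5-1, ARF8 (0.71, adjusted p = 0.0214) and ARF6 (0.47, adjusted p = 0.0398). In seu-3 both of these fell, ARF8 by 0.76 (adjusted p = 0.0097) and ARF6 by 0.47 (adjusted p = 0.0284). The level of ARF8 was 11.0 ± 1.14 FPKM in wox5-1, 6.33 ± 0.477 in Col-0 and 3.42 ± 1.08 in seu-3. ARF17 rose in seu-3 (0.56, adjusted p = 0.0151), and so did ARF7, listed in the annotation as NPH4 (0.37, adjusted p = 0.0213), which overlaps another annotated gene.

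With median-ratio scaling 7 of the 12 calls named for these lists in seu-3 passed, those of GH3.2 (-2.62), NIT1 (1.04), CYP83B1 (adjusted p = 0.00246), UGT74E2 (-0.76), ARF8 (-0.53), ARF17 (0.80) and ARF7 (0.66). The falls of ASA1 (-0.16, adjusted p = 0.351), NIT2 (-0.19, 0.222), CYP79B3 (-0.60, 0.117), ILR1 (-0.09, 0.443) and ARF6 (-0.21, 0.233) did not. Without wox5-1 replicate 3, 5 of the 11 calls named in wox5-1 passed: AT1G34040 (-1.10), GH3.2 (adjusted p = 0.0178), UGT74E2 (0.86), TSB2 (0.84) and NIT3 (0.40). The other 6 had the same direction and did not pass, with adjusted p of 0.0588 for TSB1, 0.0533 for GH3.1, 0.0525 for ILL2, 0.0593 for AT1G14120, 0.0554 for ARF8 and 0.104 for ARF6. Leaving out other single libraries left between 2 and 11 of the 11 calls in wox5-1, with 2 without wox5-1 replicate 1, 3 without Col-0 replicate 2 and 4 without Col-0 replicate 3. In seu-3 leaving out 1 library left between 5 and 11 of the 12 calls, with 5 without seu-3 replicate 3 and 6 without Col-0 replicate 2 or 3. The calls of AT1G34040 in wox5-1, NIT1, CYP83B1 and UGT74E2 in seu-3, and GH3.2 in both mutants passed in every alternative in which they were tested.

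Genes with the most similar pattern over the 9 libraries were named for the 3 enzymes with the smallest p of the F test. The measure was Pearson's r of log2(FPKM + 1), which compares the pattern and not the level, and serves as a description. The 9 points are 3 genotypes with 3 libraries each, so r mostly reflects the genotype means. For IAMT1 the closest were TOE2 (r = 0.9890), an AP2-type transcription factor, OSM34 (0.9847), an osmotin-like protein at 17.6 FPKM in seu-3 and 0.0485 and 0.0440 in Col-0 and wox5-1, and MBF1C (0.9790), a transcriptional coactivator. For GH3.5 they were SULTR1;1 (0.9945), a sulfate transporter of roots at 8.29, 5.87 and 1.36 FPKM, AT1G48120 (0.9908) and AT1G74510 (0.9863). For GH3.6 they were AT1G01540 (0.9926), AT3G45070 (0.9890) and AT4G03200 (0.9826). The genes with r above 0.95 numbered 43 for IAMT1, 56 for GH3.5 and 94 for GH3.6.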

How the data were processed

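The deposited values are FPKM, computed by the authors with Cufflinks after alignment with Bowtie to TAIR10, per the submitters' processing notes; versions, annotation, strand setting and options are not given in the sources used here. Depth is known only approximately, from the smallest steps of FPKM. All 9 columns were matched to samples by name. The extraction protocol also mentions sorted AGL42:GFP cells, not analysed here.

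The FPKM of 17062 genes with a mean of at least 1 were taken as log2(FPKM + 1), and limma 3.58.1 (R 4.3.3) made 1 fit of genotype over the 9 libraries with an intensity trend, 3 contrasts and a moderated F test. P-values were adjusted by Benjamini-Hochberg over all tested genes, with calls at an adjusted p below 0.05. The fit was also run on simulated data with independent noise, in which few genes changed, equally up and down. In these data many genes were called, in seu-3 mostly as lower. The simulation therefore cannot show how well the fit works here. GH3.3 lay below the filter and got an exact permutation test. Fold changes are ratios of mean FPKM. Same-numbered libraries of 2 genotypes had correlations of deviations from their group means between -0.263 and 0.193, and nothing in the labels pairs them, so the numbers were not taken to pair samples.

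The enzymes and lists were chosen with earlier results of these data known. All 10 enzymes are named, with up to 4 called genes per list and comparison by smallest p. The 3 genes most similar in pattern to each of 3 enzymes are named too. Gene positions, overlaps and the windows of 250 bases before annotated starts came from RefSeq's TAIR10.1 annotation and genome, in which 32826 of 33560 identifiers matched. The alternatives tried were median-ratio scaling, quantile normalization, a pseudocount of 0.1 FPKM, a filter at 5 FPKM or none, a replicate block, no intensity trend, sample quality weights, only the 6 samples compared, and leaving out each library. Python 3.11.15 with pandas 2.3.3, numpy 2.4.6, matplotlib 3.10.9 and scipy 1.17.1 made the summaries and figures.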

Additional observations from a re-analysis of the deposited data

How the results depend on the processing

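Of 480 differences of the enzymes recomputed under the alternatives 435 kept their direction and side of the threshold, 24 lost a call, 11 gained one and 10 changed sign. IAMT1 and GH3.5 in seu-3, and YUC3, YUC8, GH3.5, GH3.6 and IAMT1 between the mutants, passed in every alternative in which they were tested. With sample quality weights 7133 genes were called in wox5-1 (4653 in the reported fit) and 11040 in seu-3 (6966), and 2 enzymes passed in wox5-1 and 8 in the F test. Leaving out 1 library at a time gave 1523 to 5628 genes and 0 to 3 enzymes in wox5-1, 4575 to 7117 genes and 3 to 6 enzymes in seu-3, 9710 to 11008 genes and 5 to 6 enzymes between the mutants, and 5 to 7 enzymes in the F test.

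With the replicate number as a block 3186 genes and 1 enzyme passed in wox5-1 (1432 higher and 1754 lower), 5955 genes and 5 enzymes in seu-3, 10499 genes and 5 enzymes between the mutants, and 5 enzymes in the F test; TAR2 in seu-3 was lost (adjusted p = 0.067). Quantile normalization gave 2242 higher and 2418 lower genes in seu-3, and there YUC8 was -0.16 (adjusted p = 0.434) and TAR2 -0.14 (adjusted p = 0.594). Between the mutants median-ratio scaling gave 5618 higher and 5402 lower genes, against 3400 and 7613.

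The values that changed sign had not passed in either setting. TAA1 in wox5-1 was -0.20 to 0.07 when 1 library was left out, and above 0 without Col-0 replicate 1 or 2 or wox5-1 replicate 2 or 3. Between the mutants GH3.17 was 0.30 with median-ratio scaling, 0.18 with quantile normalization, and -0.08 to 0.07 when 1 library was left out (above 0 without seu-3 replicate 1 or wox5-1 replicate 2), TAA1 was 0.01 with median-ratio scaling and TAR2 0.18 with quantile normalization. The cause was not tested. Depth limits GH3.3, at roughly 2.30 to 11.6 fragments a library.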
